A study of Mus musculus with 24 samples.

Results

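The cytosolic ribosomal protein genes examined here were 55 autosomal genes, 34 for proteins of the large subunit and 21 for proteins of the small subunit. They are a list of gene names with no threshold on measured values, drawn up with earlier results of these data known, and pseudogenes were not included. Their gene bodies overlapped 56 of the 27268 bins of 100 kb into which the deposited table divides the mouse genome (build mm10). Each gene lay in a bin of its own, and Rpl17 reached into a second one. A bin held the ribosomal protein gene and its neighbours, so no value below is specific to the gene.

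Chromatin immunoprecipitation with sequencing was performed on primary MEFs, the fibroblasts grown out of mouse embryos, of strain C57BL6. The cells were female or male and were either wild type (WT) or lacked SIRT7 (SIRT7-KO, here KO). All groups had received 5 Gy of X-rays and had recovered for 30 min, so no labelled sample was unirradiated. An antibody against the histone variant H2AX or against its phosphorylated form gH2AX was used, and input chromatin was sequenced beside them. This gave 12 groups of 2 libraries. Whether paired libraries stem from separate cultures or embryos is not given in the labels, so p-values measure only the spread between these samples. In such bulk samples, fewer cells that carry a mark and less mark per cell cannot be told apart.

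Ribosomal proteins fold and hold the ribosomal RNAs, and growing cells such as fibroblasts transcribe their genes at very high rates from short, compact genes. H2AX is a histone variant that is phosphorylated by DNA damage kinases over broad regions on both sides of a double-strand break, and that form is called gH2AX. SIRT7 is a NAD-dependent deacetylase that is concentrated in the nucleolus, the place where ribosomal RNA is made and ribosomal subunits are put together.

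The genes lay on chromosomes 1 to 18 and were short, with a median length of 3269 bases (range 982 to 9647) against 17170 over all protein-coding genes. Their bins were rich in genes. A member bin overlapped a median of 4 coding genes (range 2 to 12), while the median over autosomal bins was 1. At least 5 coding genes were present in 25 of the 56 bins (44.6%), against 4.17% of autosomal bins. A small nucleolar RNA gene lay inside 22 of the 55 genes (40%), compared with 1.70% of all coding genes. For this reason each comparison over the member bins is given beside other autosomal bins with the same number of coding genes.

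Promoter windows (250 bases before to 50 after the start) were found in RefSeq for 43 of the 55 genes (GRCm38.p6, the build of the count table). The stretches below run from 100 bases before to 20 after the start used for the window, 5′ to 3′ on the strand of the gene. For Rps12 and Rps9 that start lies inside the annotated gene body. The body begins at 23787383 for Rps12 (minus strand) and at 3703954 for Rps9 (plus strand). They belong to the 3 genes with the largest and the 3 with the smallest gH2AX difference between KO and WT males, the comparison of genotypes within 1 sex in which most members were called. Capitals mark an unbroken run of at least 8 C or T within 20 bases of the start, the kind of pyrimidine tract for which ribosomal protein genes are known. Rps3 lies at chr7:99483690-99483809 (minus strand), Rplp2 at chr7:141447551-141447670 (plus) and Rpl13a at chr7:45128726-45128845 (minus). Rps12 lies at chr10:23787190-23787309 (minus), Rpl34 at chr3:130730379-130730498 (minus) and Rps9 at chr7:3703941-3704060 (plus).
Rps3: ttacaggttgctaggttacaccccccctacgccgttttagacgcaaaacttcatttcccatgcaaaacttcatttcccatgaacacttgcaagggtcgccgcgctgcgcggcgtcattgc
Rplp2: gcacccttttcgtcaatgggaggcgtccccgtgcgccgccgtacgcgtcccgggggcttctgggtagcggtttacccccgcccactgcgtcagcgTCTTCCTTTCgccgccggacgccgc
Rpl13a: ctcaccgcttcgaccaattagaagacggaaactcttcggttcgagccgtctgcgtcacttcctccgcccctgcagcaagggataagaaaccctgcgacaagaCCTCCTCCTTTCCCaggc
Rps12: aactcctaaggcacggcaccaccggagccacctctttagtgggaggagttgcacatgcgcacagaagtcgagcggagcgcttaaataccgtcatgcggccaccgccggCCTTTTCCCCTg
Rpl34: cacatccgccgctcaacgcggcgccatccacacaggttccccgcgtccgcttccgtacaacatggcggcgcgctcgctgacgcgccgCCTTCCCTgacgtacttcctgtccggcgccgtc
Rps9: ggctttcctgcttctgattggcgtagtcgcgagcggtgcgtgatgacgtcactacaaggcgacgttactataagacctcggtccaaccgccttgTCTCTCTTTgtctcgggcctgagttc

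A C or T run of this kind was present in 22 of the 43 windows (51.2%), against 15.9% of the 27025 RefSeq promoter windows. Of the 6 genes shown, it was found in all except Rps3, whose window holds no such run at the annotated start. The letters CCGGAAG, the core bound by ETS factors, occurred on either strand in 17 windows (39.5%, against 9.12% of all windows). AAGATGG, the core of YY1, occurred in 6 (14.0%, against 6.48%), CACGTG, an E-box, in 5 (11.6%, against 7.24%), and TATAAA in 2 (4.65%, against 14.2%). CCGGAAG and AAGATGG can share the letters AAG, and a match describes the letters only. The median GC content of the member windows was 59%, compared with 52.7% over all windows. The 27025 windows outnumber the 21883 protein-coding genes, and no comparison with windows of coding genes alone is given.

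Libraries held 66.9 M to 269 M reads (M, 1000000), and every member bin had at least 1472 reads in every library. Replicates differed by more than counting noise in all 12 groups (chi-square per degree of freedom 2.58 to 3.90), and counting noise is a part of that spread. Reads of chromosome Y made up 0.0907% to 0.0918% of female input and 1.57% to 1.60% of male input, as the sex labels state. The bin that holds Sirt7 had 34.6 to 37.7 CPM (reads per M reads on autosomes, scaled by TMM factors) in KO input and 34.5 to 36.6 in WT input. A bin of 100 kb cannot show the loss of part of a gene, so the genotype labels could not be checked, nor can DNA counts show that the cells were fibroblasts. How duplicates and reads with several alignments were treated is not given in the sources used here. Ribosomal protein genes have many processed copies elsewhere, so reads of their exons may be shared with those.

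Both marks were enriched over input in nearly all ribosomal protein bins. Averaged over sex and genotype, gH2AX relative to input rose in 54 of the 56 bins and fell in none, with a median ratio of 0.33 on the log2 scale (1.25-fold) and a range of -0.02 to 0.66. Calls rest on edgeR's quasi-likelihood test, with a threshold of 0.05 after Benjamini-Hochberg adjustment over all bins. Among all 25703 bins tested, 41.5% were called higher and 45.2% lower. In other autosomal bins with equal numbers of coding genes the mean share called higher was 79.2%, against 96.4% of the member bins. The mean of the medians of those classes was 0.25, and 36 of the 56 member bins lay above the median of their class.

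Rpl22, an RNA-binding protein on the outer face of the large subunit, had the highest ratio. Its gH2AX level was 53.4 and 50.4 CPM in female KO and 54.6 and 56.7 in female WT. It was 56.9 and 54.3 in male KO and 50.4 and 48.4 in male WT. Its input level was 33.2 to 34.7 in the 8 input libraries, below every gH2AX library. The gH2AX ratio of the Rpl22 bin was 0.66 ± 0.017 (log2, SE).

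Rplp0, the protein that anchors the stalk to which elongation factors bind, came next at 0.63 ± 0.017. Rps15, a protein of the head of the small subunit that reaches toward the decoding site, was at 0.56 ± 0.017. Rplp2, one of the acidic tips of the stalk, was at 0.53 ± 0.017. The other genes among the highest 8 were Rpl13a (0.51), Rps21 (0.50), Rps18 (0.50) and Rpl12 (0.48).

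At the other end, Rps12, a protein of the beak of the small subunit, had a gH2AX level of 36.4 to 38.1 CPM and an input level of 37.1 to 39.3 CPM. These ranges overlapped, and the ratio was -0.02 ± 0.018 (adjusted p = 0.200, edgeR's quasi-likelihood test). Rps13, a protein of the body of the small subunit, was at -0.02 ± 0.019 (adjusted p = 0.341, edgeR's quasi-likelihood test), and was likewise not called. Rps23, which contacts the decoding centre, and Rpl34 were called with small ratios of 0.05 and 0.09.

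By role, the stalk and its base (Rplp0, Rplp1, Rplp2, Rpl12) had the highest median ratio of gH2AX to input, 0.51, with 4 of 4 bins called. The 20 other large subunit bins had a median of 0.32 (20 called), and the 10 bins of the head of the small subunit 0.35 (9 called). The 11 bins of the body of the small subunit had 0.34 (10 called). The 7 bins of genes for proteins around the exit tunnel had 0.24 (7 called). Rpl3 and Rpl8, which reach toward the peptidyl transferase centre, were at 0.39 and 0.30. Rpl5 and Rpl11, which carry the smallest ribosomal RNA of the large subunit and bind Mdm2 outside the ribosome, were at 0.11 and 0.30. The ranges of all these roles overlapped, and 41.5% of all bins were called higher. In other bins with the gene numbers of the members the mean share was 79.2%. The roles were not matched for gene number separately, and the class medians of the stalk bins ran from 0.18 (Rplp0, Rplp1) to 0.42 (Rplp2).

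**Figure D1:**
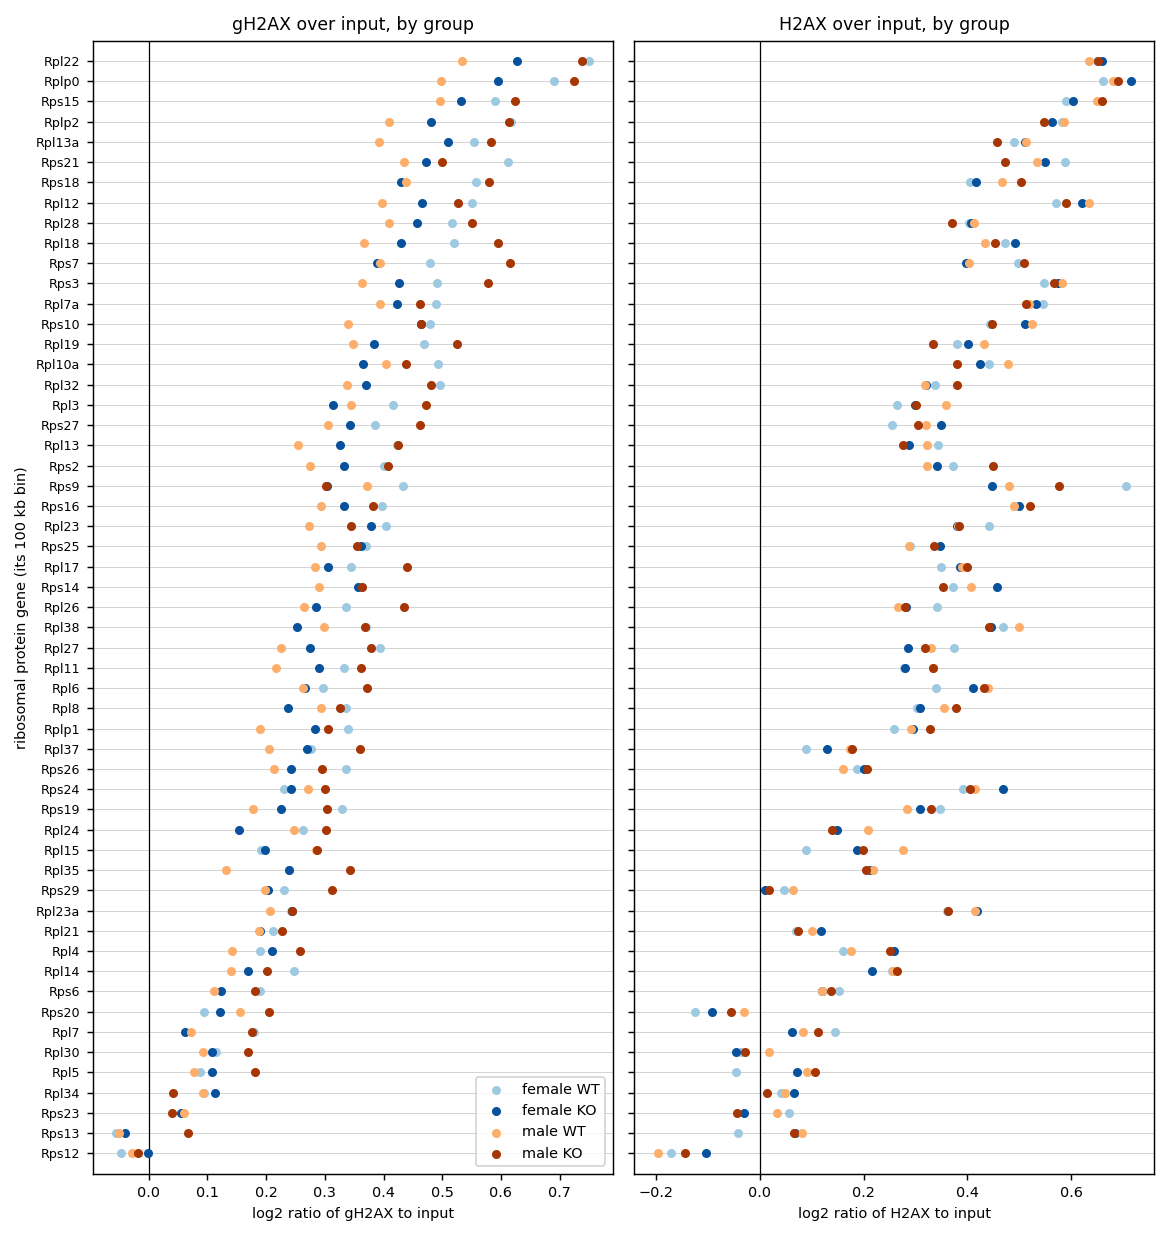
Log2 ratio of gH2AX (left) and H2AX (right) to input for the bin of each of the 55 genes, with 1 point per sex and genotype group (a fit over 2 libraries of each kind), sorted by the mean gH2AX ratio. In the gH2AX panel most genes have the male KO point to the right of the male WT point, and the group medians are 0.36 and 0.27, while in the H2AX panel they are 0.34 and 0.33.

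Total H2AX followed much the same course. Relative to input it rose in 50 of the 56 bins and fell in 2, with a median of 0.33 and a range of -0.15 to 0.69, while 44.9% of all 25703 bins were called higher and 44.5% lower. The mean share of other bins with equal gene number called higher was 81.3%, against 89.3% of the member bins. Rplp0 (0.69), Rpl22 (0.65), Rps15 (0.63), Rpl12 (0.60), Rplp2 (0.57), Rps3 (0.57), Rps9 (0.55) and Rps21 (0.54) had the highest ratios.

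The bins called lower were those of Rps12 and Rps20, both in the head of the small subunit. Rps12 had 31.9 to 35.4 CPM of H2AX against 37.1 to 39.3 CPM of input, with no overlap, and a ratio of -0.15 ± 0.018. Rps20 had 32.9 to 36.9 CPM of H2AX and 35.2 to 37.0 CPM of input, which overlap, and a ratio of -0.08 ± 0.018. Rpl30 (-0.02) and Rps23 (0.00) were not called, and Rpl30 was called at -0.05 without the first female WT library of H2AX (adjusted p = 0.00823, edgeR's quasi-likelihood test). Across the 56 bins the gH2AX and H2AX ratios had a Pearson r of 0.90 and a Spearman rho of 0.88. Both use the same 8 input libraries, and r over 24032 autosomal bins was 0.85.

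With H2AX as the reference in place of input, the ribosomal protein bins went both ways. gH2AX relative to H2AX rose in 21 bins and fell in 20, beside 38.5% of all bins called higher and 36.6% called lower. The median was 0.01, with a range of -0.20 to 0.22, and it was 0.0013 without the first and 0.03 without the second female KO library of gH2AX. In other bins with equal gene number the mean of the medians was -0.03, and the mean shares called were 27.4% higher and 46.7% lower. The member bins above the median of their class numbered 36.

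Rps20 had the highest ratio of gH2AX to H2AX. Its 8 gH2AX libraries were at 38.6 to 42.3 CPM and its 8 H2AX libraries at 32.9 to 36.9 CPM, so the marks did not overlap, and the ratio was 0.22 ± 0.018. Rps29, a small zinc-binding protein of the head, followed at 0.20 ± 0.018. The next were the smaller-overlap bin of Rpl17 (0.16), Rpl30 (0.14), Rpl37 (0.13), Rps12 (0.13), Rpl21 (0.11), Rpl28 (0.09) and Rps26 (0.08). H2AX relative to input was called lower in Rps20 and Rps12, and it was uncalled in Rpl30, Rps29 (0.03) and the smaller-overlap bin of Rpl17 (0.03). In Rpl28 (0.40), Rps26 (0.19), Rpl37 (0.14) and Rpl21 (0.09) it was called higher. The same H2AX libraries enter both ratios, as the divisor of gH2AX to H2AX, so the ratios are not independent.

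Rps9, which lies near the entry of the messenger RNA channel, had the lowest ratio, -0.20 ± 0.024. Its gH2AX level was 19.9 to 22.4 CPM and its H2AX level 21.8 to 27.5 CPM, which overlap. Its input level of 15.6 to 17.5 CPM was the lowest of all member bins. The bin also holds Pirb and Pira1 of the paired immunoglobulin-like receptor family and 2 pseudogenes, and the share of its reads that could come from near-identical copies was not tested. Rps24 (-0.16), Rpl23a (-0.15) and Rps16 (-0.15) were the next lowest. Of the stalk bins, Rpl12 (-0.12), Rplp0 (-0.06) and Rplp2 (-0.04) fell and Rplp1 (-0.01) was not called.

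**Figure D2:**
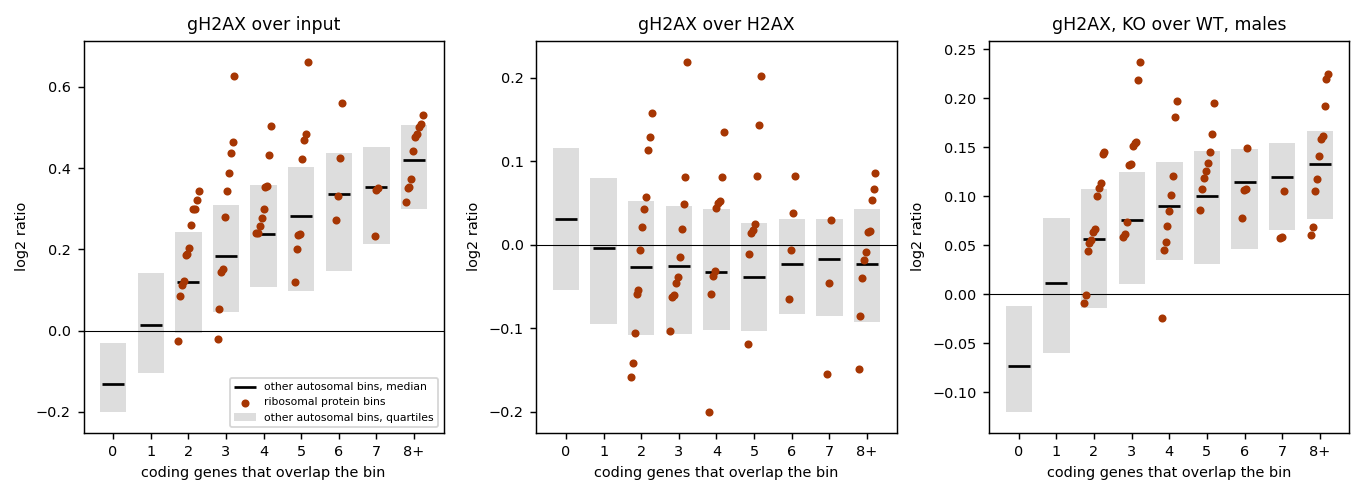
Log2 ratios of the 56 ribosomal protein bins (points) by the number of coding genes that overlap the bin, beside the median (bar) and quartiles (grey) of the other autosomal bins. In the left and right panels the grey medians climb with the number of genes, from -0.13 to 0.42 for gH2AX over input and from -0.07 to 0.13 for KO over WT in males, and the points lie inside, above and in a few cases below the grey range.

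The enrichment extended over the neighbouring bins. The median gH2AX ratio over the 55 genes was 0.33 in the bin that holds most of the gene, 0.34 and 0.30 in the bins 100 kb before and after, and 0.20 in both bins at 500 kb. The number of coding genes fell from a median of 4 to 3 and 2 over the same distances. Further out the gH2AX ratio did not fall steadily, with medians of 0.16 at 1000 kb before (53 genes) and 0.26 at 1000 kb after. The gene's own bin was above both neighbours for 23 of 55 genes, against 28.2% of all autosomal bins and 37.5% of those with at least 5 coding genes. gH2AX relative to H2AX had a median of 0.01 in the own bin, -0.03 and -0.01 at 100 kb, and -0.06 and -0.07 at 500 kb.

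**Figure D3:**
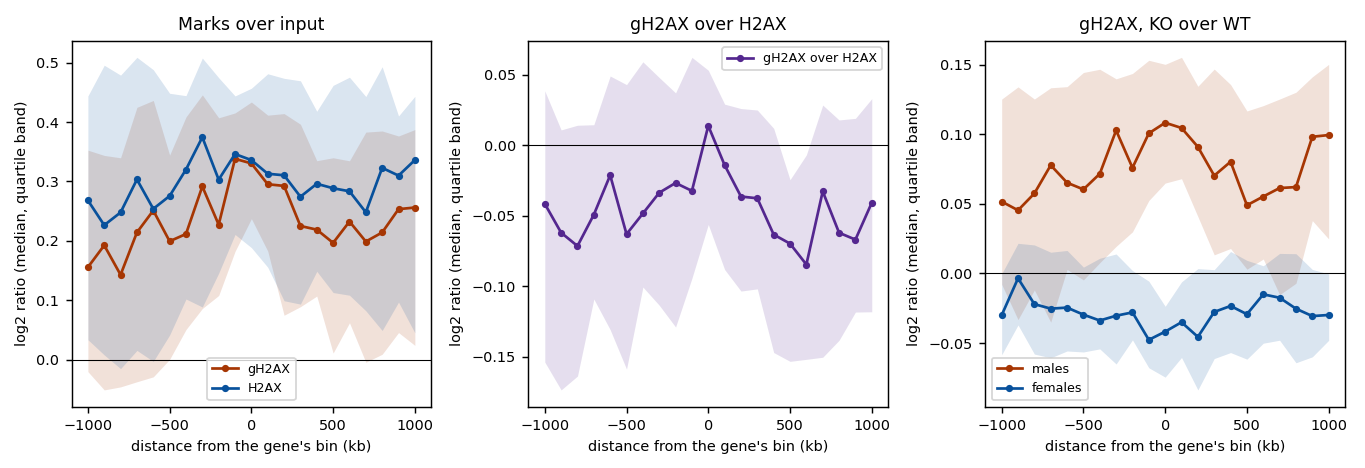
Median and quartile band over the 55 genes of the log2 ratio at each distance from the bin of the gene, for gH2AX and H2AX over input (left), gH2AX over H2AX (middle) and the gH2AX change of KO over WT in each sex (right). The gH2AX ratio to input is 0.33 at the centre and 0.20 at 500 kb on either side, and the male change is 0.11 at the centre and 0.05 to 0.06 at 500 kb. At 1000 kb before and after, the gH2AX ratio is 0.16 and 0.26 and the male change 0.05 and 0.10.

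Loss of SIRT7 was compared with WT within each sex, the question the design puts to these libraries. Every library was scaled to its autosomal reads, so a gain or loss of a mark over the whole genome cannot be seen. Here and throughout, rose and fell mean relative to the other bins. In males, gH2AX rose in 37 of the 56 ribosomal protein bins and fell in none. The changes were small, with a median of 0.11 (log2, 1.08-fold) and a range of -0.02 to 0.24. Of all 25702 bins, 22.4% were called higher and 22.2% lower. The KO libraries lay above the WT libraries without overlap in 51 of the 56 bins, and in 35.6% of all bins, and they lay below in none, against 38.9%. Leaving out 1 library at a time left 25 to 33 bins called.

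Other bins with the same number of genes had much the same change. Their mean share called higher was 55.1%, against 66.1% of the member bins, and the mean of their medians was 0.09. A total of 32 of the 56 member bins lay above the median of their class. When each library's smooth trend on the mean ratio of gH2AX to input was removed, 1 member bin was called higher (Rps13, 0.14, adjusted p = 0.0355, edgeR's quasi-likelihood test). The member median was then 0.0014, and over all bins 218 were called higher and 212 lower, in place of 5765 and 5716. Across 24032 autosomal bins the male gH2AX change had a Pearson r of 0.85 with the ratio of gH2AX to input, and across the 56 member bins an r of 0.56, with gH2AX libraries shared between both measures. The part of that trend in the changes of single genes was not tested.

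Rps3, which lines the entry of the messenger RNA channel, showed the highest change. Its gH2AX level was 54.8 and 53.1 CPM in male KO and 45.8 and 45.6 CPM in male WT. The KO libraries were both above the WT libraries, by more than the spread within either pair. The change was 0.24 ± 0.035 (log2, SE), with an adjusted p of 2.56e-09 in edgeR's quasi-likelihood test. With the trend removed it was 0.08 (adjusted p = 0.164, edgeR's quasi-likelihood test).

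Rplp2 had 54.3 and 55.3 CPM in male KO and 48.3 and 45.4 CPM in male WT, again without overlap, and a change of 0.22 ± 0.035 (adjusted p = 1.75e-08, edgeR's quasi-likelihood test). Rpl13a, a large subunit protein that also acts in the silencing of inflammatory messages, had 56.1 and 53.5 CPM in male KO and 46.4 and 47.6 CPM in male WT. Its change was 0.22 ± 0.035 (adjusted p = 3.95e-08, edgeR's quasi-likelihood test). Rplp0 had 56.3 and 54.4 CPM in male KO and 48.8 and 45.9 CPM in male WT, and a change of 0.22 ± 0.035. Its bin holds only 3 coding genes, a class with a median of 0.08. Rpl19 (0.20), Rpl35 (0.20), Rpl18 (0.19) and Rpl13 (0.18) completed the highest 8. None of these 8 was called once the trend was removed, with values of 0.03 to 0.10.

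The lowest 4 values in males were near 0. Rps12 had 37.1 and 37.7 CPM in male KO and 37.2 and 37.8 CPM in male WT, so that the groups overlapped, and Rpl34 had 36.6 and 38.6 against 38.1 and 37.8. The Rps9 bin had 19.9 and 21.0 CPM in KO and 21.0 and 20.7 CPM in WT. Their values were -0.00068, -0.0088 and -0.02. Rpl21, at 0.04, had 40.3 and 42.0 CPM in KO and 39.9 and 40.1 CPM in WT, which did not overlap. All were uncalled (adjusted p from 0.305 to 0.990, edgeR's quasi-likelihood test), and all these bins apart from Rps9 hold 2 coding genes.

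Every role contributed called bins, while 22.4% of all bins were called higher. In other bins with the gene numbers of the members the mean share was 55.1%. The roles were not matched for gene number separately, and the class medians of the stalk bins were 0.08 (Rplp0, Rplp1), 0.10 (Rpl12) and 0.13 (Rplp2). The stalk and its base rose in 4 of 4 bins with a median of 0.18, and the exit tunnel group (Rpl4, Rpl17, Rpl19, Rpl23a, Rpl26, Rpl35) in 6 of 7 with 0.15, the exception being Rpl23a (0.06). Rpl5 (0.11) and Rpl11 (0.14) rose, as did Rpl3 (0.16), while Rpl8 (0.05) was not called. Of the other large subunit bins 12 of 20 rose, among them Rpl22 (0.16) and Rpl28 (0.16), and uncalled ones included Rpl38 (0.06), known for its part in the translation of Hox messages. The head of the small subunit rose in 6 of 10 bins, including Rps10 (0.15), Rps29 (0.15) and Rps18 (0.14). The body rose in 6 of 11, including Rps27 (0.16) and Rps14 (0.11), while Rps6, the substrate of S6 kinase, was uncalled at 0.06. In all, 25 of 35 large subunit bins and 12 of 21 small subunit bins rose, with medians of 0.12 and 0.10.

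Genes with a small nucleolar RNA inside rose in 16 of 22 bins (median 0.12), and those without one in 20 of 33 (median 0.11), beside 22.4% of all bins. Relative to the class of equal gene number the medians were 0.03 with and 0.0071 without a small nucleolar RNA. The neighbouring bins had a like change, with a median over the 55 genes of 0.10 at 100 kb on either side. The gene's own bin was above both neighbours for 16 genes of 55, against 30.4% of autosomal bins.

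In females no ribosomal protein bin was called for gH2AX. edgeR's quasi-likelihood test with Benjamini-Hochberg adjustment called 0 of 56 in either direction, with 15 at an unadjusted p under 0.05. DESeq2 gave an adjusted p for 25 of the member bins and called 0. The median was -0.04 and the range -0.11 to 0.02, while 0.416% of all bins were called higher and 0.595% lower. The mean of the medians of bins with equal gene number was -0.03, and 22 member bins lay above the median of their class. Without the first female KO library of gH2AX the member median was -0.07. The KO libraries lay below WT without overlap in 31 of the 56 bins and above in 2, against 21.3% and 23.2% of all bins.

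The lowest value was that of Rplp2, with 51.1 and 48.4 CPM in female KO and 54.9 and 53.0 CPM in female WT. The groups did not overlap, and the change was -0.11 ± 0.035 (adjusted p = 0.0826, edgeR's quasi-likelihood test). Rpl22 (-0.10), Rplp0 (-0.10) and Rps18 (-0.09) were next. Without the second female WT library of gH2AX, Rplp0 was called at -0.15 (adjusted p = 0.0369, edgeR's quasi-likelihood test). At the upper end were Rps23, Rpl35 and Rpl23 (0.02 each), Rps12 (-0.0013), Rps24 (-0.0078), Rpl30, Rps20 and Rps2 (-0.01 each).

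**Figure D4:**
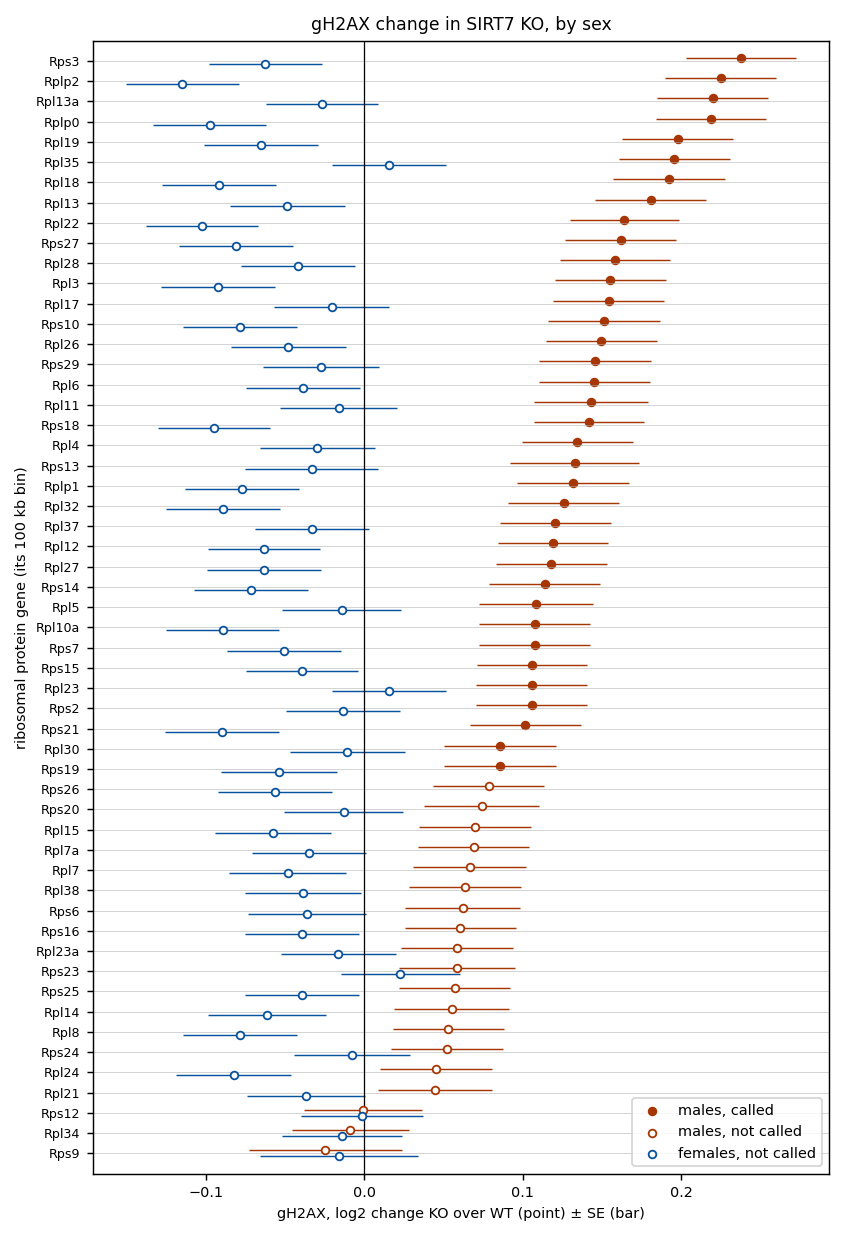
gH2AX change of KO over WT (log2, point) with its SE (bar) for the bin of each of the 55 genes in males and females. Filled points are called at an adjusted p under 0.05. The male points reach 0.24 at Rps3, and the female points, of which none is called, run from -0.11 to 0.02.

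The change with loss of SIRT7 itself differed between the sexes. The female minus the male change of gH2AX fell below 0 at the threshold in 39 of the 56 bins and rose in none, with a median of -0.16 and a range of -0.34 to 0.01. Among all bins 20.4% were called lower and 20.1% higher, and in other bins with equal gene number the mean share called lower was 53.9%, against 69.6% of the member bins. DESeq2 called 34 member bins. With the trend on enrichment removed, edgeR called 0 of 56, and the median was -0.0063.

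The lowest values were those of Rplp2 (-0.34 ± 0.050), Rplp0 (-0.32 ± 0.050), Rps3 (-0.30 ± 0.050) and Rpl18 (-0.28 ± 0.050). In Rps3 the female levels were 48.3 and 47.6 CPM in KO and 51.2 and 49.0 CPM in WT, the opposite order to the males. The 8 genes nearest to 0 were Rps9, Rps12, Rpl34, Rps23, Rps24, Rpl23a, Rpl21 and Rps20, from -0.09 to 0.01, and none of them was called. The stalk bins were called lower in 4 of 4 with a median of -0.26, beside 20.4% of all bins called lower. The share was 69.6% over all member bins and a mean of 53.9% in other bins with equal gene number. The roles were not matched for gene number separately.

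Seen by library, the groups fell in the same order in other gene-rich bins. The median ratio of gH2AX to input over the member bins was 0.36 in male KO, 0.35 in female WT, 0.29 in female KO and 0.27 in male WT. In the 996 other autosomal bins with at least 5 coding genes it was 0.38, 0.36, 0.30 and 0.27. The same quantity for H2AX was 0.34 in male KO and female WT and 0.33 in male WT and female KO. Median gH2AX over the member bins was 46.0 and 46.3 CPM in male KO, 43.4 and 42.6 in male WT, 44.3 and 43.6 in female KO and 45.5 and 45.4 in female WT. The pairs of libraries did not overlap between genotypes in either sex.

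**Figure D5:**
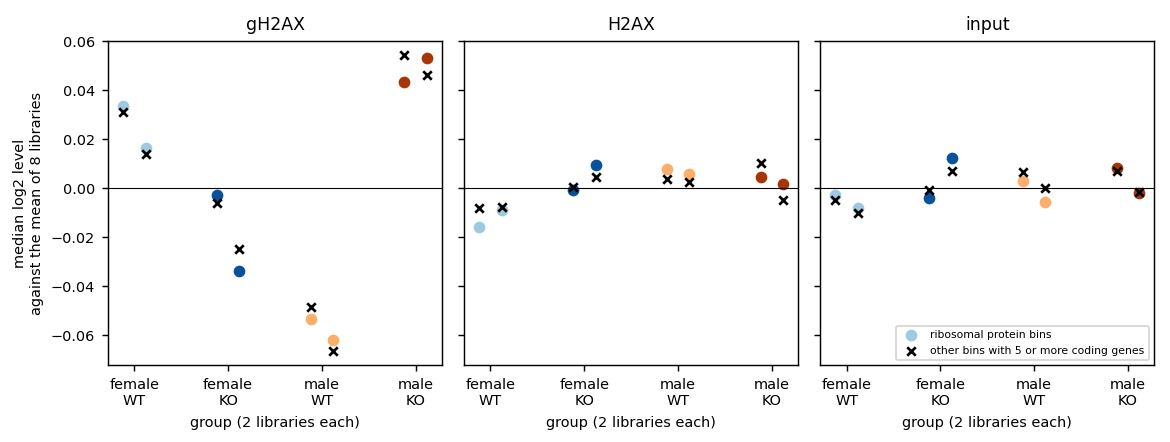
Median log2 level over the ribosomal protein bins (circles) in each library, relative to the mean of the 8 libraries of the same kind, beside the median over other autosomal bins with at least 5 coding genes (crosses). gH2AX medians run from -0.06 in male WT to 0.05 in male KO, circles and crosses move together, and H2AX and input medians stay within 0.02 of 0.

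No ribosomal protein bin was called within either sex for total H2AX or for input. H2AX had 0 of 56 member bins called in males and 0 in females by edgeR's quasi-likelihood test, with 5 and 3 at an unadjusted p under 0.05, and DESeq2 called 0 in both. The medians were -0.0054 and 0.02, and the shares of all bins called higher and lower were 0.105% and 0.0856% in males and 0.0311% and 0.121% in females. Bins with equal gene number had means of medians of -0.0010 and 0.0091. The highest male values were those of Rps9 (0.15), Rps2 (0.10), Rpl4 (0.09), Rplp1, Rps25, Rpl8, Rpl32 and Rps26, and the lowest those of Rpl24 and Rpl19 (-0.08 each), Rpl38 (-0.06) and Rpl12 (-0.05). In females Rpl5 (0.08), Rpl12 (0.07), Rpl6, Rps13, Rps27, Rps24, Rpl38 and Rpl17 were highest, and Rps9 (-0.15), Rps23 (-0.07), Rps7 and Rpl26 (-0.06 each) lowest.

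The difference of the H2AX change between the sexes was called in 1 member bin, that of Rps9, beside 0.195% of all bins called lower and 0.0778% higher. Its H2AX level was 23.2 and 24.2 CPM in female KO, 24.8 and 27.5 in female WT, 23.4 and 27.3 in male KO and 21.8 and 23.1 in male WT. KO was below WT in females and above it in males, without overlap but with wide pairs. The female minus the male change was -0.29 ± 0.068 (adjusted p = 0.0198, edgeR's quasi-likelihood test). The call held with the trend on enrichment removed (-0.32, adjusted p = 0.00668, edgeR's quasi-likelihood test) but was not made by DESeq2 (-0.31, adjusted p = 0.974). It was also lost without the first (-0.26) or second (-0.32) female KO library, the second female WT (-0.21), the second male KO (-0.20) or the first male WT library (-0.25). Without the first male KO library, the male H2AX change of Rps9 was itself called, at 0.27 (adjusted p = 0.00144, edgeR's quasi-likelihood test). The median over the member bins was 0.03, against a mean of medians of 0.01 in bins with equal gene number. The uncalled values of the other named genes were 0.06 to 0.12 for Rpl12, Rpl38, Rpl19, Rpl24, Rpl3, Rpl23a, Rps27 and Rpl13a, and -0.08 to -0.06 for Rps2, Rps23 and Rpl23.

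Input had 0 of 56 member bins called in either sex by edgeR's quasi-likelihood test, with 3 at an unadjusted p under 0.05 in each, and DESeq2 called 0. The medians were 0.0039 in males and 0.02 in females, and 0.0973% and 0.0506% of all bins were called higher and 0.124% and 0.132% lower. Bins with equal gene number had means of medians of 0.0014 and 0.0081. The female median was 0.0055 without the second female KO input. In males the values ran from -0.11 at Rps7, followed by Rpl22, Rps19 and Rpl7 (-0.04 each), to 0.08 at Rps23, with Rpl10a, Rpl15, Rps9, Rpl34, Rps14, Rps21 and Rpl6 next. In females they ran from -0.06 at Rps14, Rpl15 and Rps10 and -0.05 at Rpl4 to 0.12 at Rps9, with Rpl38, Rpl7, Rpl27, Rps2, Rps19, Rps21 and Rpl13 next.

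Set against H2AX of the same group, the gH2AX change of KO over WT in males rose in 27 bins and fell in 1, beside 15.9% and 14.3% of all bins, with a median of 0.12. In other bins with equal gene number the mean share called higher was 40.3%, against 48.2% of the member bins, and the mean of the medians was 0.10. Rpl19 was highest at 0.28 ± 0.047, from 0.20 in gH2AX alone and -0.08 in H2AX. Rpl13a (0.25), Rplp2 (0.24), Rps3 (0.23), Rpl35 (0.23), Rplp0 (0.22), Rpl13 (0.22) and Rpl18 (0.21) followed, and Rpl18 was not called without the first male KO library of gH2AX (0.13, adjusted p = 0.0583, edgeR's quasi-likelihood test). Rps2 (0.0060), Rpl34 (-0.02) and Rps12 (-0.04) were not called.

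The bin that fell was Rps9, at -0.17 ± 0.068 (adjusted p = 0.0478, edgeR's quasi-likelihood test). It was not called by DESeq2 (adjusted p = 0.168), with DESeq2's size factors in edgeR (0.0662), or without the second male KO or first male WT library of H2AX (-0.07 and -0.13). The same held without the first male KO library of gH2AX (-0.14) and without either male WT library of gH2AX (-0.16 and -0.18). With the trend on enrichment removed, Rps9 was the 1 bin called, at -0.30 (adjusted p = 0.0110, edgeR's quasi-likelihood test), and the median over the member bins was -0.0021.

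In females the same ratio called 0 of 56 member bins in edgeR's quasi-likelihood test, beside 0.0973% of all bins called higher and 0.14% lower. A total of 16 had an unadjusted p under 0.05, and DESeq2 called 0 of the 44 to which it gave an adjusted p. The median was -0.07, against a mean of medians of -0.04 in bins with equal gene number. Rplp0 (-0.15), Rps18, Rps27 and Rpl3 (-0.14 each) were lowest, and Rps9 (0.13), Rps23 (0.09), Rpl23 (0.04), Rps7, Rps29, Rpl35, Rpl26 and Rpl30 highest. Rplp0 was called at -0.21 without the first female KO or the second female WT library of gH2AX (adjusted p = 0.0398 and 0.0366, edgeR's quasi-likelihood test).

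Set against input, the male gH2AX change rose in 23 member bins and fell in none, beside 10.8% and 8.79% of all bins, with a median of 0.11. In other bins with equal gene number the mean share called higher was 31.9%, against 41.1% of the member bins, and the mean of the medians was 0.09. Rpl18 (0.23 ± 0.051), Rplp0 (0.23), Rps7 (0.22), Rps3 (0.22), Rpl35 (0.21), Rpl22 (0.21), Rplp2 (0.20) and Rpl13a (0.19) were highest. Rps9 (-0.07), Rpl34 (-0.05), Rps23 (-0.02) and Rpl15 (0.0031) were lowest and uncalled. For Rps7, which is among the highest here and at 0.11 in gH2AX alone, input was -0.11 in KO males. The count fell to 13 without the second male KO or the second male WT library of gH2AX, to 9 without the second male KO input and to 14 without the first male WT input. Among the named genes, Rpl18 was not called without the first male KO library of gH2AX (0.15), nor were Rplp2 (0.15) and Rpl13a (0.14) without the second male KO input. The count was 0 with the trend removed, where Rpl22 was at -0.0011. With DESeq2's size factors, all bins split into 3348 higher and 1722 lower in place of 2767 and 2260, and 26 member bins rose.

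In females, 0 of 56 member bins were called for this ratio by edgeR's quasi-likelihood test, beside 0.218% of all bins called higher and 0.171% lower. A total of 13 had an unadjusted p under 0.05, and DESeq2 called 0 of the 36 to which it gave an adjusted p. The median was -0.06, against a mean of medians of -0.04 in bins with equal gene number. Rps21 and Rplp2 (-0.14 each), Rps9 and Rps18 (-0.13 each) were lowest, and Rps12 (0.05), Rps20 (0.03), Rpl5, Rpl4, Rpl34, Rps13, Rps24 and Rpl15 highest.

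The other genes of the ribosome and its assembly were counted from lists in the same way. Beside these counts, 22.4% of all bins were called higher and 22.2% lower for gH2AX in KO males. In bins with the gene numbers of the members the mean share called higher was 55.1%, and shares matched to each list are not given here. In KO males the gH2AX bins of X-linked ribosomal protein genes rose in 3 of 4 (Rpl39 0.13, Rps4x 0.12, Rpl36a 0.12), and Rpl10 was uncalled at -0.02. Bins of the other 22 autosomal ribosomal protein genes, 2 of them shared with the members, rose in 16 of 22 with a median of 0.12. Paralogs of ribosomal protein genes rose in 3 of 6 (Rpl7l1 0.17, Rpl3l 0.11, whose bin is that of Rps2, and Rps27l 0.09) and fell in 1, Rpl10l (-0.10). Mitochondrial ribosomal protein genes rose in 59 of 89 bins and fell in 1 with a median of 0.10, the ends being Mrpl53 (0.22) and Mrps30 (-0.10). Genes of ribosome assembly and of RNA polymerase I rose in 22 of 41 with 0.09, and translation factors rose in 14 of 34 and fell in 1, with 0.06, the ends being Eif6 (0.27) and Eif3m (-0.10).

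For gH2AX relative to input, 41.5% of all bins were called higher and 45.2% lower. In bins with the gene numbers of the members the mean share called higher was 79.2%. The ratio rose in 4 of 4 X-linked bins, 20 of 22 bins of the other autosomal ribosomal protein genes and 83 of 89 mitochondrial ones. It rose in 40 of 41 assembly bins, 29 of 34 translation factor bins and 3 of 6 paralog bins. It fell in 2 each of the mitochondrial, translation factor and paralog bins, the last being Rpl39l (-0.05) and Rpl10l (-0.09). The median was 0.26 for the mitochondrial list, whose bins hold a median of 4 coding genes, the same as the members, which had 0.33.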

How the data were processed

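The authors deposited raw read counts per 100 kb bin, 1 column per library. The submitters' processing notes list mm10 and, with no order, Bowtie2 2.2.9, Trimmomatic 0.36, deepTools 2.4.2, SAMtools 0.1.19, MACS2 2.2.7.1, and FastQC 0.11.3. A further 24 columns, untreated by their names, match no labelled sample and were not used. Levels without X-rays were therefore not compared. Bins were assigned to genes by RefSeq coordinates of GRCm38.p6, and all 55 genes matched. No genome sequence was used, so the GC content of bins was not analysed.

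The fits used edgeR 4.0.16 in R 4.3.3 (filterByExpr, library size as the autosomal sum, TMM factors from autosomal bins, 1 mean per group, two-sided quasi-likelihood F test, Benjamini-Hochberg over all bins tested, threshold 0.05). Each antibody and input was fitted alone, and ratios came from a fit of all 24 libraries. Each SE was obtained by dividing the log2 value by the root of its F statistic. The procedure was tested on simulated data. Median biological coefficients of variation were 2.12% for gH2AX, 2.13% for H2AX and 1.85% for input. Classes by gene number leave out member bins and join bins with 8 or more genes.

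Alternatives were DESeq2 1.42.0, its size factors in edgeR, no count filter, the replicate number as a block, removal of each library's lowess trend (span 0.3) on enrichment, only the bin with most of each gene, and each library left out in turn. Enrichment was the ratio of H2AX to input in the fit of H2AX alone. In every other fit, that of all 24 libraries included, it was the ratio of gH2AX to input for all libraries. When 1 library of a pair is left out, the other is assumed to vary like the remaining groups. In each comparison the 8 highest and 4 lowest genes are named, with any called gene where at most 10 were called and any called against the majority. From the other lists, all called genes of lists with at most 5 called bins or the ends of a list are named. The members and lists were chosen with earlier results of these data known.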

Additional observations from a re-analysis of the deposited data

Results flagged for a closer look

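The gH2AX change of KO against WT differed between the sexes in 39 of the 56 ribosomal protein bins, by the interaction term of edgeR's quasi-likelihood test with Benjamini-Hochberg adjustment. Among all bins 20.4% were called lower and 20.1% higher. In other bins with equal gene number the mean share called lower was 53.9%, against 69.6% of the member bins. The female minus the male change was -0.34 for Rplp2, -0.32 for Rplp0, -0.30 for Rps3 and -0.28 for Rpl18. With the trend on enrichment removed, no member bin was called for this gH2AX difference. For H2AX the same test of the difference between the sexes called 1 bin, that of Rps9, at -0.29, beside 0.195% of all bins called lower and 0.0778% higher.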

How the results depend on the processing

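Counts of called ribosomal protein bins stayed within 1.5 times, apart from the following. With each library's trend on enrichment removed, the count was 1 for gH2AX in males (from 37), 0 for the difference between the sexes (from 39), 1 for gH2AX/H2AX in males (from 28) and 0 for gH2AX/input in males (from 23). The gH2AX/H2AX median in males turned to -0.0021 and Rpl22 in gH2AX/input to -0.0011, and the uncalled female gH2AX/input median also turned, to 0.0046. The cause was not tested. DESeq2 called 0 for the H2AX difference between the sexes (from 1). The replicate block called 1 bin for gH2AX in females, Rplp2 at -0.12 (adjusted p = 0.0376 in edgeR's quasi-likelihood test), and changed no other count by over 1.5 times. Deviations of equally numbered libraries correlated at no more than 0.062, so the numbers were not taken as pairs. Leaving out 1 library gave 25 to 33 bins for gH2AX in males, 0 to 1 in females and 28 to 38 for their difference. It gave 0 to 1 for H2AX in males and for its difference between the sexes. It gave 19 to 26 for gH2AX/H2AX in males, 0 to 1 in females and 9 to 24 for gH2AX/input in males. With the trend removed, 1 median over the member bins was counted as reversed, 7 as moved by more than the SD between replicates and 4 as the same. With 1 library left out, medians moved by more than that SD in 6 cases. These were -0.07 for gH2AX in females, 0.0055 for input in females and 0.32 in 2 cases for H2AX to input. The others were 0.0013 and 0.03 for gH2AX to H2AX. Trend removal was not run for the 3 ratios averaged over groups. Signs of uncalled single bins were not followed. For the levels over both sexes and genotypes it gave 54 for gH2AX to input, 50 to 53 for H2AX to input and 37 to 40 for gH2AX to H2AX. With 2 libraries a group, the smallest male gH2AX change called was 0.09 (log2).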
